A study of Mus musculus with 4 samples.

Results

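A set of 9 genes of nuclear hormone receptor signalling were followed through the last stages of red cell formation in the mouse fetal liver. They were chosen by name: the glucocorticoid receptor gene Nr3c1, the thyroid hormone receptor genes Thra and Thrb, the retinoic acid receptor gene Rara, the retinoid X receptor genes Rxra and Rxrb, the fatty acid receptor gene Ppara, the corepressor gene Ncor1, and Tsc22d3, a glucocorticoid-induced gene also called Gilz. All 9 are among the 19564 gene symbols of the deposited tables. The study sorted erythroid cells of E14.5 fetal livers by TER119, a surface antigen gained during red cell maturation, and CD71, the transferrin receptor, which is gained and then lost. R2 holds proerythroblasts with early basophilic erythroblasts, R3 early and late basophilic erythroblasts, R4 mostly polychromatophilic and orthochromatophilic erythroblasts, and R5 late orthochromatophilic erythroblasts with reticulocytes. No genotype, drug or culture step distinguishes the groups, and each gave 1 library, so the values describe 4 libraries, differences lack a replicate check, and p-values are not given.

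Nuclear receptors are transcription factors that small lipid-soluble ligands switch on or off. The glucocorticoid receptor waits in the cytoplasm on a chaperone complex and enters the nucleus with its hormone. Thyroid hormone, retinoic acid and fatty acid receptors sit on DNA as partners of a retinoid X receptor and, without ligand, thyroid hormone and retinoic acid receptors hold a corepressor complex built on NCoR1. In red cell precursors glucocorticoids favour renewal of early progenitors over maturation, PPAR alpha ligands are known to add to that effect, and the thyroid hormone receptor is the cellular counterpart of the v-ErbA oncogene of an avian erythroblastosis virus.

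The libraries carried the transcripts of their labelled lineage, and also those of other blood cells and of hepatocytes. All 12 erythroid markers looked at were above 1 RPKM (reads scaled to gene length and library size) in every library, with a summed level of 11612 RPKM in R2 and 357104 in R5. Globin genes took up 5.52% of all RPKM in R2, then 59.4%, 80.4% and 81.9% in R3, R4 and R5, which lowers every other gene in the later libraries. The summed level of 12 granulocyte markers was 6271 RPKM in R2 and between 241 and 481 in the other libraries, with none of the 12 at 0. That of 9 lymphoid markers was 30.5 RPKM in R2 and at most 2.91 elsewhere. Macrophage markers summed to 115 RPKM in R2 and 29.8 to 70.5 later, and hepatocyte markers to 238 in R2, then 577, 197 and 417 in R3, R4 and R5. The 8 megakaryocyte markers summed to 44.1 RPKM in R2, then 46.8, 24.5 and 73.2 in R3, R4 and R5. As deposited, 5 of the 8 were higher by 2-fold or more in R5 than in R4, beside 3.97% of all genes. Most of the receptors followed here are also made by granulocytes or macrophages, and the part of those cells in the levels of R2 was not tested. In sorted bulk samples fewer cells of a type and less RNA per cell cannot be told apart. The depth read from the step size of the values was about 23000000 reads in R2, then 25600000, 27400000 and 20700000 in R3, R4 and R5. Intervals given below are 95% Poisson or exact binomial intervals on the reads this implies over the exonic length of each gene, and cover counting error only.

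Promoter sequences from RefSeq, on build GRCm38.p6, were taken for 7 of the 9 genes. Thra and Nr3c1 are not among them, and start sites on the chromosome of Nr3c1 were left out beforehand. The 7 genes gave 16 promoters, 1 per start site, each running from 250 bases before to 50 bases after the start. Of these, 6 hold one of a pair of 6-base words that these receptors read, and the 4 of genes that reached 1 RPKM are shown. The word AGGTCA is the half-site of thyroid hormone, retinoid and PPAR receptors, and AGAACA that of the glucocorticoid receptor. In the Rxra promoter at chr2:27709042-27709341, plus strand, the capitals mark AGGTCA 48 bases upstream of the start and its reverse complement TGACCT 87 bases upstream. In the Rara promoter at chr11:98964622-98964921, plus strand, they mark AGGTCA at position 34 from the start. In the Tsc22d3 promoter at chrX:140600473-140600772, minus strand, they mark TGTTCT, the reverse complement of AGAACA, 185 bases upstream. In the Ncor1 promoter at chr11:62438466-62438765, minus strand, they mark TGTTCT 185 and 12 bases upstream. The others were both promoters of Thrb, 1 with AGGTCA and 1 with 2 copies of AGAACA.
Rxra: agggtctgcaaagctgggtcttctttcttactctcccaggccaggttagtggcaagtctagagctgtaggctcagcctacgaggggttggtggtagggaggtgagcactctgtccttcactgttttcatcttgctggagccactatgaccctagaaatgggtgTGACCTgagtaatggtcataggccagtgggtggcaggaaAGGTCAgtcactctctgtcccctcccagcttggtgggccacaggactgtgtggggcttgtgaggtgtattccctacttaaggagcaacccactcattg
Rara: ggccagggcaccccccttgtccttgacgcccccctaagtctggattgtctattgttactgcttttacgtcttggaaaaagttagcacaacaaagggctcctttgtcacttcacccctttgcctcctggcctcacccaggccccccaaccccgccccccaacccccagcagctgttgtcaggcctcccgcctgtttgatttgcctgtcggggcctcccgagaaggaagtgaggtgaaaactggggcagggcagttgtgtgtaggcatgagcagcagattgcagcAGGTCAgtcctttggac
Tsc22d3: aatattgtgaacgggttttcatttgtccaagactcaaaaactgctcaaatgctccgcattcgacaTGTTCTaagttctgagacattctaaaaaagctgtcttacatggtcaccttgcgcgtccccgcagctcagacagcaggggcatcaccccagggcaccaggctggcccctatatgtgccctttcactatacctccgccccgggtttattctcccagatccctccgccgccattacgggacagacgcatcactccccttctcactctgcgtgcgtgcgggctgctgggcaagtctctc
Ncor1: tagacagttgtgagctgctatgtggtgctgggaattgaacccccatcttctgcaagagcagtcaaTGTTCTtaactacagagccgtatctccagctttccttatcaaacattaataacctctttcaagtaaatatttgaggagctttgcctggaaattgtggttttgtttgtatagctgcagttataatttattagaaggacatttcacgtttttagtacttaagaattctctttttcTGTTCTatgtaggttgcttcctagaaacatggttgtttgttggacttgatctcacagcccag
Searched on both strands, AGGTCA was present in 3 of the 16 promoters, beside 16.3% of 32851 mouse promoters of the same 300 bases, and AGAACA was also present in 3, beside 19.0%. The GATA factor word AGATAA was in 0 of the 16, beside 11.2%. No motif overlapped another in the 4 promoters shown. A match describes the letters in these windows and is not a measured binding site.

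Of the 9 genes, 7 reached 1 RPKM in at least 1 library, and each of those 7 had its highest deposited level in R2, the least mature population. Thra was the highest of the receptors followed here in R2, Rxrb in the 3 later libraries, and the corepressor gene Ncor1 exceeded all of the receptors among the 9 in R3 and R4. Thrb and Ppara were at or under 0.08 RPKM everywhere. In R5 against R2, all 7 genes past the filter were lower by 2-fold or more on the scale of log2(RPKM + 1), which understates the change of low genes. Rara and Tsc22d3 reached 1 RPKM in R2 alone, so they passed the filter through the library where they were highest, and the count of 7 supports nothing. Lower by 2-fold or more were also 76.9% of all 9942 genes past the filter, and 2.74% were higher. Scaling each library by the median of its gene ratios left 1 of the 7 lower by 2-fold, Thra, beside 13.7% of all genes, and 0 higher, beside 9.42%, and removing the globin genes left 3, Thra, Nr3c1 and Rxra, beside 29.8%. The median log2 ratio of the 7 was -1.99 in the deposited values, -0.64 after median scaling and -0.97 after globin removal, and that of all genes -1.65, -0.42 and -0.68.

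**Figure D1:**
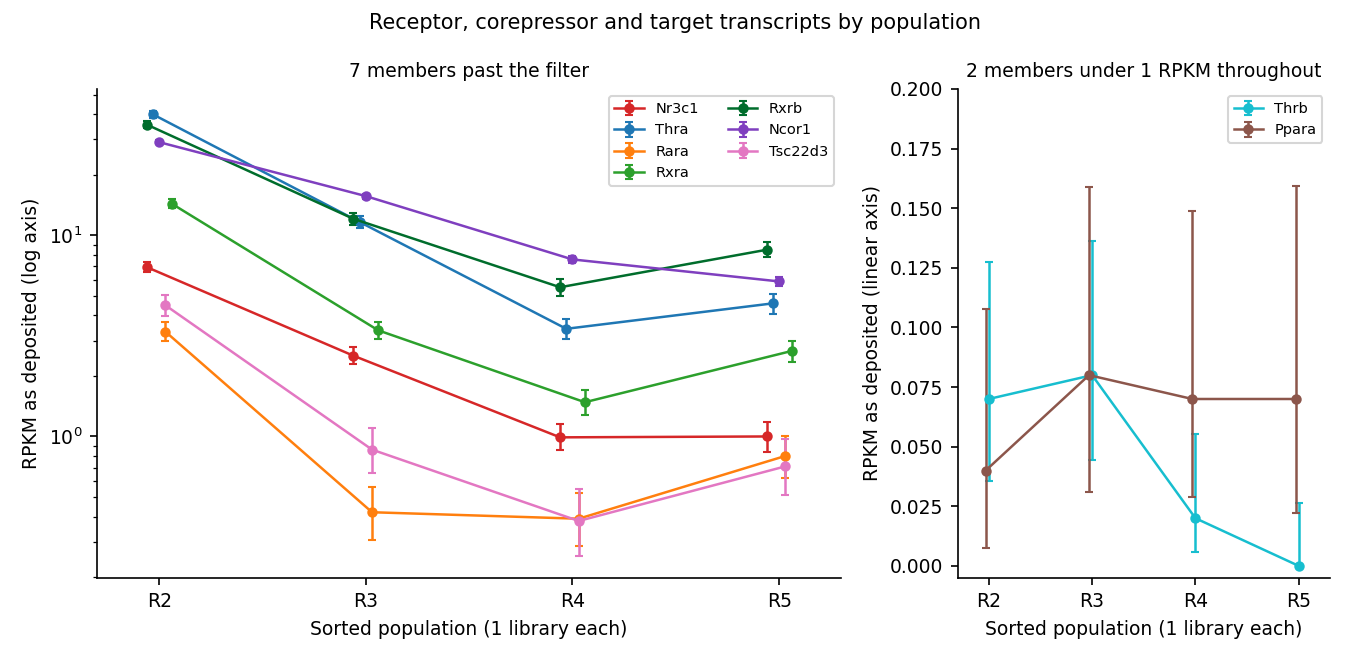
Deposited RPKM of the 9 genes in the 4 sorted populations, 1 library each, on a log axis for the 7 genes past the filter (left) and a linear axis for Thrb and Ppara (right). Bars are 95% Poisson intervals from the implied reads. Thra goes from 39.9 in R2 to 3.43 in R4 and 4.59 in R5, while Ncor1 alone of the 7 is lowest in R5 on this deposited scale.

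The glucocorticoid receptor gene was a low to moderate transcript. Nr3c1 was at 6.95 RPKM in R2, then 2.52, 0.99 and 1.0 in R3, R4 and R5, levels resting on about 1044, 422, 178 and 136 reads. As deposited R2 was highest, R3 intermediate, and R4 and R5 overlapped, with an R5 to R4 ratio of 1.01 and an interval of 0.803 to 1.27. After median scaling that ratio was 0.783 (0.622 to 0.985), and R5 was the lowest library under both rescalings. The R2 level was 6.95 times that of R5 as deposited (interval 5.79 to 8.35), 2.29 times after median scaling and 2.92 times after globin removal. On the log2(RPKM + 1) scale the ratio of R5 to R2 was -1.99, and 31.5% of genes had a lower one. In R2 the level of Nr3c1 exceeded that of 36.4% of the genes past the filter, and in R5 that of 25.5%.

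Tsc22d3 encodes a leucine zipper protein induced by glucocorticoids and is a common readout of glucocorticoid receptor activity. It was at 4.49 RPKM in R2, then 0.86, 0.38 and 0.71 in R3, R4 and R5, on about 286, 61, 29 and 41 reads. As deposited R2 was highest and R4 lowest, below R3 by a ratio of 0.442 (0.275 to 0.702) and below R5, with an R5 to R4 ratio of 1.87 (1.13 to 3.12), while R3 and R5 overlapped. After median scaling the interval of R4 to R3, 0.585 to 1.49, and that of R5 to R4, 0.879 to 2.42, both held 1. Its log2(RPKM + 1) ratio of R5 to R2, -1.68, lay beside the median of all genes, with 48.3% of genes lower. That ratio depended on the pseudocount: with one of 0.1 RPKM it was -2.50. In plain RPKM the R5 to R2 ratio was 0.158 (0.112 to 0.221). Set against the receptor within each library, a measure that no rescaling changes, Nr3c1 stood at 1.55 times Tsc22d3 in R2 (interval 1.36 to 1.77), 2.93 in R3 (2.24 to 3.90), 2.61 in R4 (1.75 to 4.0) and 1.41 in R5 (0.985 to 2.04). The intervals of R2 and R3 do not overlap, and those of R2 and R5 do.

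Thra, which encodes the main thyroid hormone receptor of blood precursors, had the lowest log2 ratio of R5 to R2 among the 7 genes past the filter. It was at 39.9 RPKM in R2, then 11.7, 3.43 and 4.59 in R3, R4 and R5. R2 stood far above the rest, R3 above R4 and R5, and R5 slightly above R4 as deposited, with a ratio of 1.34 and an interval of 1.13 to 1.57, which became 1.04 (0.879 to 1.22) after median scaling. The deposited R2 level was 8.70 times that of R5 (interval 7.73 to 9.84), 2.86 times after median scaling and 3.65 times after globin removal. Its log2 ratio of R5 to R2 was -2.87 in the deposited values, -1.39 after median scaling and -1.72 after globin removal, and 2.51%, 3.02% and 2.88% of genes lay below it. Thra shares 263 of its 3158 exonic bases, 8.33%, with Nr1d1, which encodes the receptor REV-ERB alpha on the opposite strand. Strand use in the counting is not given in the sources used here, so reads in that stretch could come from either gene. Nr1d1 was at 4.49 RPKM in R2, then 1.52, 0.64 and 0.72 in R3, R4 and R5, and Thra stood between 5.36 and 8.89 times above it.

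Thrb, the other thyroid hormone receptor gene, was at 0.07 RPKM in R2, then 0.08 and 0.02 in R3 and R4, and was listed at 0 in R5. These values stand for about 11, 14, 4 and 0 reads, and 3 reads would give 0.021 RPKM in R5. In each library Thra was the more abundant of the pair per unit length.

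Rara encodes the retinoic acid receptor alpha, which also acts in granulocyte development. It was at 3.32 RPKM in R2, then 0.42, 0.39 and 0.80 in R3, R4 and R5, on about 326, 46, 46 and 71 reads. As deposited R2 was highest, R3 and R4 overlapped, with an R4 to R3 ratio of 0.929 and an interval of 0.607 to 1.44, and R5 was above R4 by a ratio of 2.05 (1.39 to 3.03). After median scaling R4 was above R3, at 1.97 (1.29 to 3.06), and R3 was the lowest library under both rescalings. Within the libraries Nr3c1 stood at 2.09 times Rara in R2 (1.85 to 2.38), 6.0 in R3 (4.42 to 8.33), 2.54 in R4 (1.82 to 3.58) and 1.25 in R5 (0.934 to 1.69), highest in R3 and lowest in R5. Rara was the member whose ratio of R3 to R2 was lowest in RPKM, 7.90 times lower as deposited. Its ratio of R5 to R2 was the mildest of the 7 genes on the log2(RPKM + 1) scale, -1.26, with 67.0% of genes lower. In plain RPKM that ratio was 0.241 (0.184 to 0.313) and overlapped that of Rxrb, 0.239 (0.216 to 0.263). In R5 against R3, which leaves out R2, Rara had a log2 ratio of 0.34, higher than that of 95.4% of all genes.

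The retinoid X receptors serve as common partners of the other receptors. Rxrb was at 35.5 RPKM in R2, then 12.1, 5.52 and 8.48 in R3, R4 and R5, and Rxra at 14.4, 3.37, 1.48 and 2.66. For both, R2 was the highest library and R4 the lowest under every scaling used. Their R5 to R4 ratios, 1.54 for Rxrb (1.35 to 1.75) and 1.80 for Rxra (1.5 to 2.16), were above 1 as deposited and stayed above the median gene with median scaling, at log2 ratios of 0.23 and 0.36 against 0.07. As deposited, summed markers of megakaryocytes, granulocytes, macrophages, hepatocytes and lymphoid cells were also higher in R5 than in R4. Granulocyte markers went from 241 to 481 RPKM, macrophage markers from 29.8 to 68.2 and hepatocyte markers from 197 to 417. The part of RNA of such cells in the R5 to R4 ratios of Rxrb, Rxra and Rara was not tested. Rxrb supplied 71.2% of their summed level in R2 and between 76.1% and 78.9% later. The Rxrb to Rxra ratio was 2.47 in R2 (2.32 to 2.63), 3.58 in R3 (3.19 to 4.03), 3.73 in R4 (3.15 to 4.42) and 3.19 in R5 (2.75 to 3.71), so R2 was below the others and those 3 overlapped.

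Ppara was at 0.04 RPKM in R2, then 0.08, 0.07 and 0.07 in R3, R4 and R5, values that stand for 3 to 7 reads. As deposited, differences between the populations were not detectable at this depth. With median scaling the R5 to R2 ratio was 5.31 (1.09 to 36.1), on 5 and 3 reads, too few for a comparison. The related receptor gene Ppard was at 14.2, 10.7, 3.16 and 4.62 RPKM, and Pparg was at 0.55 RPKM or less.

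Ncor1 encodes the corepressor that unliganded thyroid hormone and retinoic acid receptors recruit. It was at 29.1 RPKM in R2, then 15.7, 7.59 and 5.90 in R3, R4 and R5, on 1366 reads or more. As deposited it went lower at every step, and R5 was below R4 with a ratio of 0.777 (0.727 to 0.832). With median scaling R2, R3 and R4 stood at 13.4, 13.3 and 13.7 RPKM, and R5 at 8.24. With globins removed the levels were 17.2, 15.9, 12.3 and 8.33 in R2, R3, R4 and R5, lower at every step. The R4 to R3 ratio was then 0.772 (0.734 to 0.812), so the course before R5 depended on the rescaling. Nr3c1 was also lowest in R5 under both rescalings, so this place of R5 was not particular to Ncor1. Only 7.96% of all genes had a lower ratio of R5 to R4 as deposited and 7.74% with median scaling, although neither step after R3 passed 2-fold on the log2(RPKM + 1) scale for this gene.

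The steps of the course were read against the same background. In R3 against R2, 6 of the 7 genes were lower by 2-fold or more as deposited, beside 55.1% of all genes, 0 were higher, beside 3.81%, and Ncor1 was within 2-fold at a log2 ratio of -0.85. Rara and Tsc22d3 passed the filter through R2 alone, so the counts of this step, here and after rescaling, support nothing. With median scaling 0 of the 7 were lower, beside 18.0%, and with globins removed 2, Rara and Rxra, beside 22.8%. In R4 against R3, 2 of the 7 were lower, Thra at -1.51 and Rxrb at -1.0, beside 32.1% of genes, and 0 higher, beside 0.493%. Under median scaling 0 were lower, beside 0.382% of genes, and with globins removed also 0, beside 2.83%. For Thra 3.83% of genes lay below that step as deposited and 3.90% with median scaling. In R5 against R4, 0 of the 7 were lower and 0 higher, beside 0.604% and 3.97% of all genes. With R2 not used, in R5 against R3, 2 of the 7 were lower, Thra at -1.18 and Ncor1 at -1.27, beside 13.1% of genes, and 0 higher, beside 0.664%. Under median scaling 0 were lower, beside 0.986%, and with globins removed also 0, beside 2.95%.

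**Figure D2:**
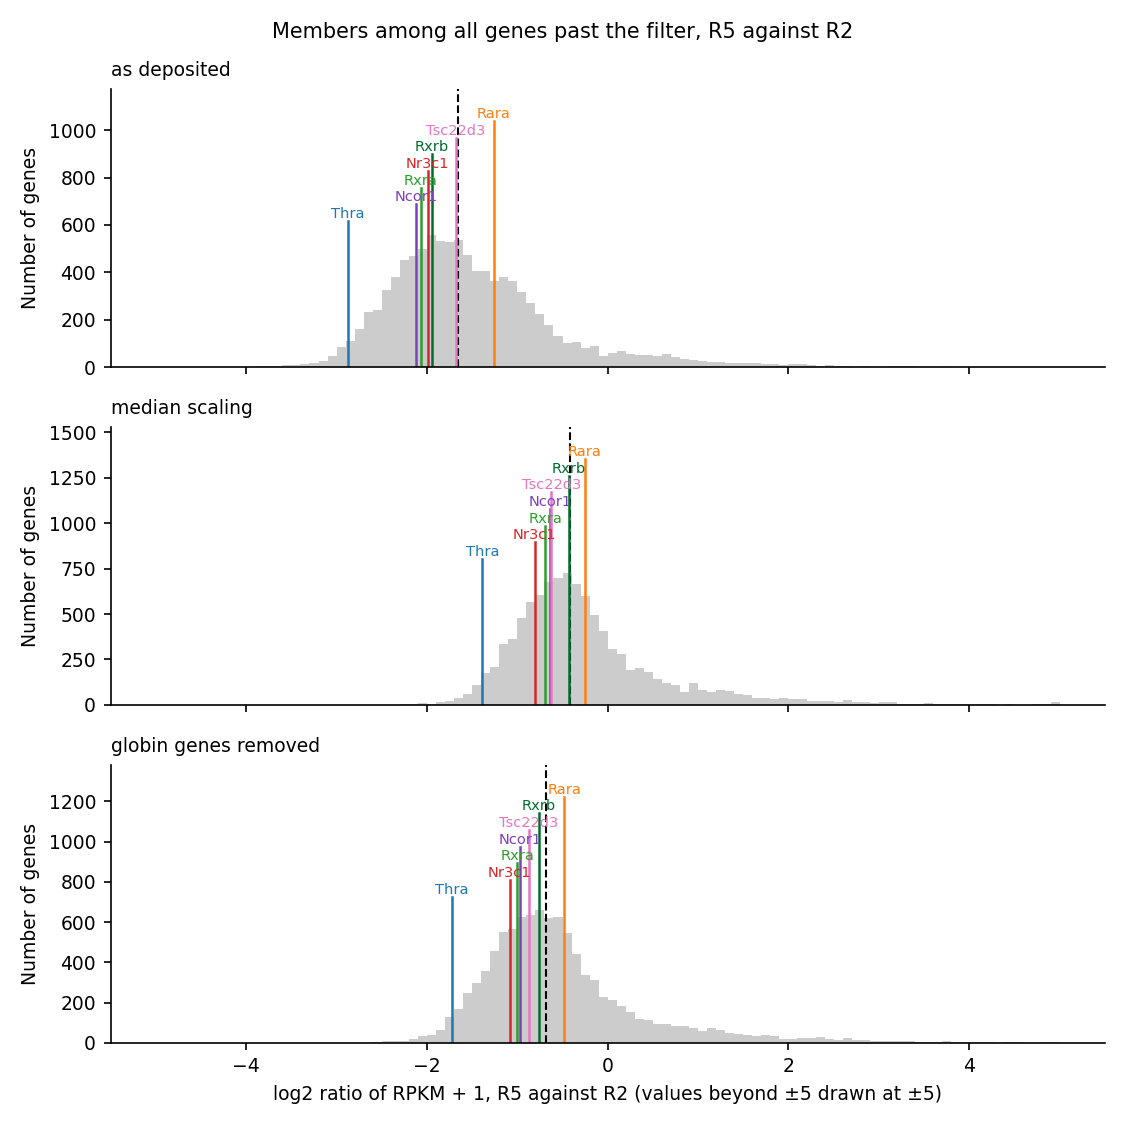
Distribution of log2 ratios of RPKM + 1 for R5 against R2 over all genes past the filter (grey bars, number of genes), with the 7 genes as coloured lines and the median of all genes dashed, as deposited, after median scaling and after globin removal. Thra lies in the lower tail in each panel, at -2.87, -1.39 and -1.72, and the other 6 lie within the body of the distribution.

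Because globin transcripts compress all other values, ratios of genes within a library were taken as a measure that does not depend on the scaling. The balance of corepressor to thyroid hormone receptor shifted toward the corepressor up to R4. Ncor1 stood at 0.728 times Thra in R2 (interval 0.697 to 0.760), 1.35 in R3 (1.25 to 1.44), 2.21 in R4 (1.96 to 2.51) and 1.29 in R5 (1.14 to 1.46). R2 was lowest and R4 highest, and R3 and R5 overlapped. Against the glucocorticoid receptor, Ncor1 stood at 4.18 in R2 (3.92 to 4.46), 6.22 in R3 (5.63 to 6.89), 7.67 in R4 (6.56 to 8.96) and 5.90 in R5 (4.93 to 7.07). Only R2 lay apart from all others in that pair. Against Rxrb, Ncor1 stood at 0.818 in R2 (0.781 to 0.857), 1.30 in R3 (1.21 to 1.39), 1.38 in R4 (1.24 to 1.53) and 0.696 in R5 (0.628 to 0.772), so that here R5 was lowest, below R2, and R3 and R4 overlapped.

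Thra also lost ground to its partner gene. The Thra to Rxrb ratio was 1.12 in R2 (1.06 to 1.19), 0.964 in R3 (0.879 to 1.06), 0.621 in R4 (0.535 to 0.722) and 0.541 in R5 (0.467 to 0.625). R4 and R5 overlapped and lay below R2 and R3. The Thra to Nr3c1 ratio was 5.75 in R2 (5.35 to 6.17), 4.62 in R3 (4.12 to 5.2), 3.47 in R4 (2.86 to 4.19) and 4.59 in R5 (3.72 to 5.64), so that R2 lay above R3 and R4, and R5 overlapped each of the others.

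**Figure D3:**
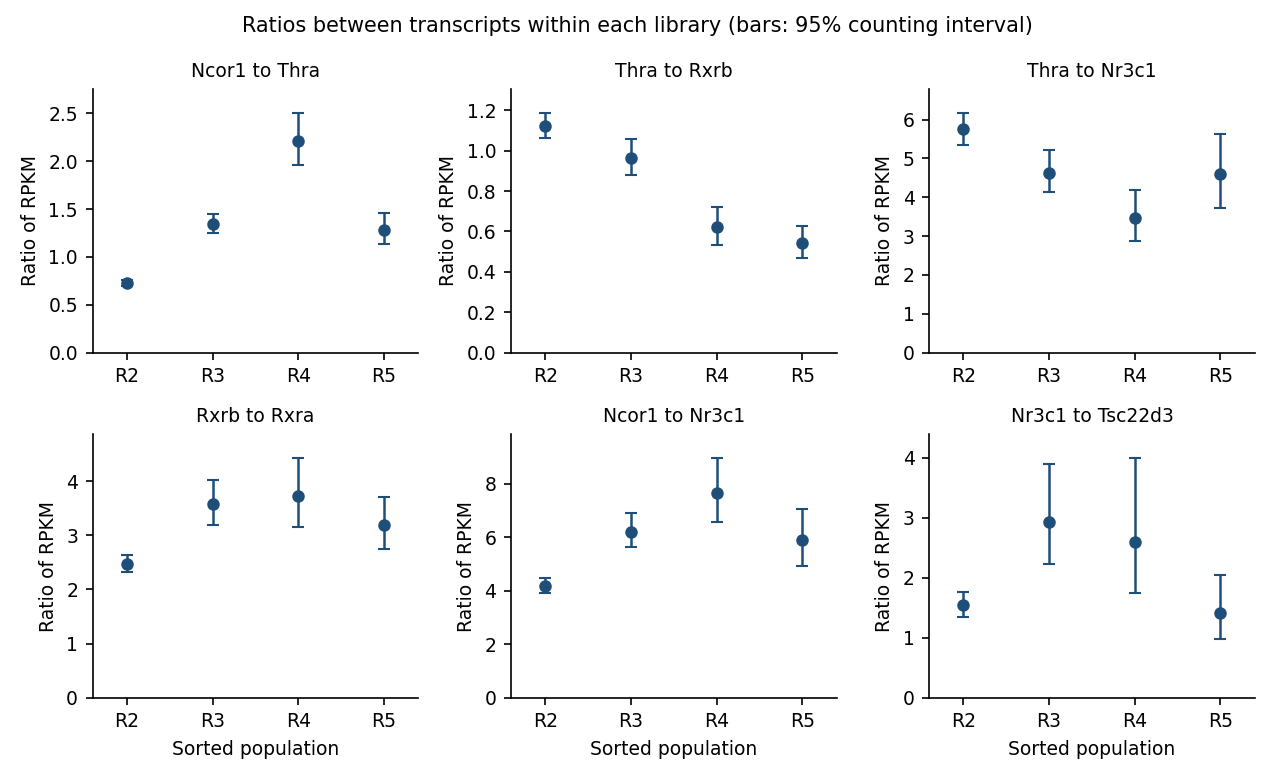
Ratios of RPKM between pairs of transcripts in each of the 4 libraries, on linear axes from 0, with 95% exact binomial intervals from the implied reads. Ncor1 to Thra runs from 0.728 in R2 to 2.21 in R4, Thra to Rxrb from 1.12 in R2 to 0.541 in R5, and Ncor1 to Nr3c1 from 4.18 in R2 to 7.67 in R4.

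The 49 nuclear receptor genes of the mouse were all present in the tables, and 17 reached 1 RPKM in at least 1 library. Of those 17, 5 are among the genes followed here. In R2 the order by RPKM was Nr1h2 (liver X receptor beta, an oxysterol receptor) at 52.7, Thra at 39.9, Rxrb at 35.5, Esrra (an orphan receptor of energy metabolism) at 18.4, Rxra at 14.4, Ppard at 14.2, Nr2c2 (TR4, an orphan receptor that binds globin promoters) at 9.14, Nr3c1 at 6.95 and Nr2f6 at 6.86. Neighbours that overlapped in their counting intervals were Rxra with Ppard and Nr3c1 with Nr2f6. Thra ranked 2 of the 49 in R2 and 3 in R3 and in R4. In R5 it ranked 4, at 4.59 RPKM against 4.62 for Ppard, and in R3, R4 and R5 the intervals of these receptors overlapped. Nr3c1 ranked 8 in R2 and 10 in R5. Nr1h2 ranked 1 in every library, with 40.5, 18.2 and 20.7 RPKM in the last 3, and Rxrb ranked 2 in R3, R4 and R5, with its interval overlapping that of Thra in R3.

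As a share of the summed RPKM of the family, Thra was 18.1% in R2, then 11.6%, 8.07% and 8.15% in R3, R4 and R5. Nr3c1 went from 3.16% in R2 to 1.77% in R5, Rxra from 6.53% to 4.72%, and Rxrb from 16.1% in R2 through 12.0% in R3 to 15.1% in R5. Nr1h2 took 23.9% in R2 and 36.8% to 42.8% later. Of the 17 receptors past the filter, 13 were lower by 2-fold or more in R5 than in R2, beside 76.9% of all genes, and 0 higher, beside 2.74%, with a median log2 ratio of -1.43, beside -1.65 for all genes. With median scaling 1 was lower, Thra, beside 13.7% of all genes. Rara, Rarg, Nr2c1, Nr4a1 and Nr4a2 passed the filter through R2 alone, so these counts support nothing.

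**Figure D4:**
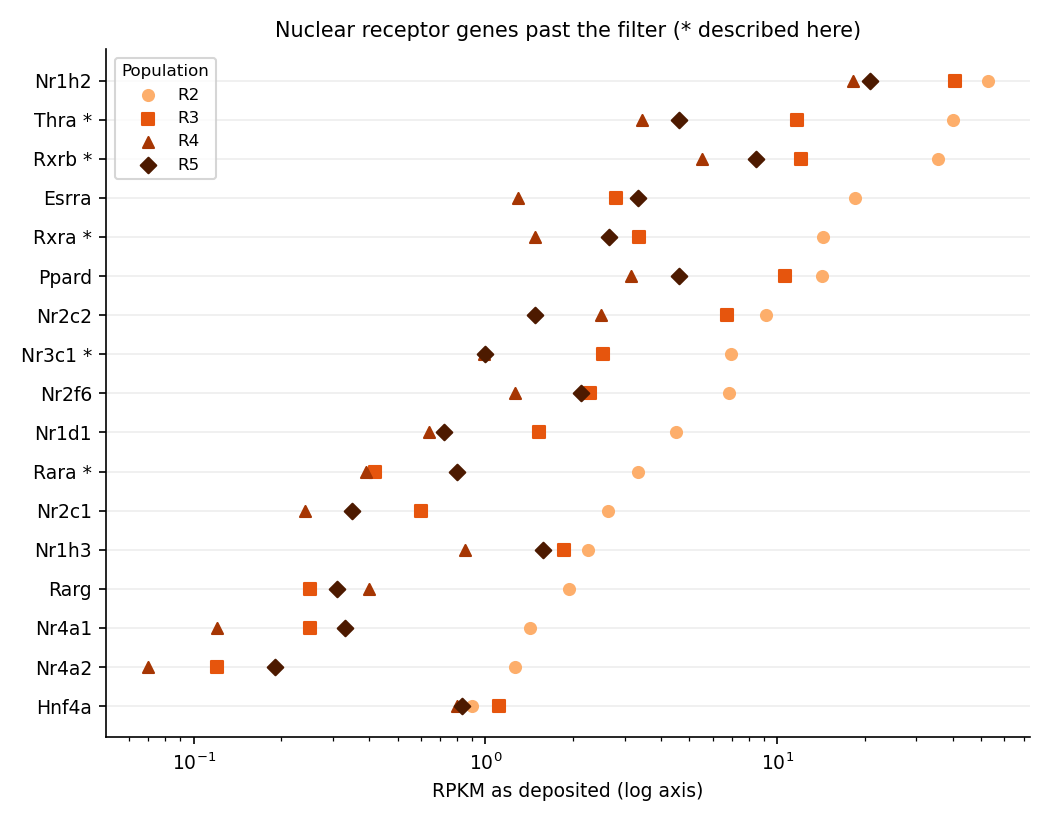
Deposited RPKM (log axis) of the 17 nuclear receptor genes past the filter, ordered by their level in R2, with 1 marker per population and an asterisk on the genes followed here. Nr1h2 is the rightmost gene in every library, and Thra ranks 2 in R2 and 4 in R5.

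The genes of the corepressor complex around Ncor1 differed in course. Of 12 listed genes, 10 passed the filter, and 9 were lower by 2-fold or more in R5 than in R2, beside 76.9% of all genes, and 0 higher, with a median log2 ratio of -1.86. With median scaling 2 were lower, beside 13.7%, and the median was -0.39. Hdac3, the histone deacetylase of the complex, went from 31.8 to 8.36 RPKM between R2 and R5, and Tbl1x, which links it to ubiquitin-dependent exchange of corepressors, from 19.6 to 2.03. Gps2, a small subunit of the complex, was the exception within 2-fold, at 101 RPKM in R2, then 123, 52.2 and 64.0 in R3, R4 and R5. Of 16 coactivator genes, 15 passed the filter and 13 were lower, beside the same 76.9%, with a median of -1.87, and 4 were lower with median scaling, beside 13.7%. At 1 RPKM or more were 10 corepressor genes in R2 and 9 in each later library. Coactivator genes at that level were 15 in R2 and 13, 12 and 12 in R3, R4 and R5. The filter thus leaned on R2 for both lists, and their counts support nothing. The acetyltransferase gene Kat2a went from 50.6 to 6.04 RPKM, and Ep300, another acetyltransferase gene, from 20.2 to 7.90.

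The chaperones that hold the glucocorticoid receptor ready for hormone had a low median ratio of R5 to R2. All 17 listed genes passed the filter, and 16 were lower by 2-fold or more in R5 than in R2, beside 76.9% of all genes, with a median log2 ratio of -2.46, beside -1.65. With median scaling 8 were lower, beside 13.7%, and the median was -0.99, beside -0.42. Hsp90ab1, a cytosolic HSP90 gene, went from 1391 RPKM in R2 to 255 in R3, 104 in R4 and 207 in R5. Fkbp4, an HSP90 cochaperone that favours nuclear import of the receptor, went from 296 to 42.9 between R2 and R5, and St13, which joins HSP70 and HSP90 during receptor assembly, from 113 to 12.8. Bag1, an HSP70 cofactor, was the gene within 2-fold, at 127 and 64.7 RPKM.

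Genes that glucocorticoids induce in other cells had a share of lower calls near that of all genes as deposited, but not of higher calls. Of 24 listed, Tsc22d3 among them, 20 passed the filter, and 15 were lower by 2-fold or more in R5 than in R2, beside 76.9% of all genes, and 2 higher, beside 2.74%, with a median log2 ratio of -1.63. With median scaling 4 were lower, beside 13.7%, and 4 higher, beside 9.42%. At 1 RPKM or more were 20 of the 24 in R2 and 13, 12 and 14 in R3, R4 and R5. Tsc22d3 and Klf9 passed the filter through R2 alone, so these counts support nothing. Fkbp5, an HSP90 cochaperone that dampens the receptor, was at 16.1 RPKM in R2, then 2.60, 1.26 and 2.24 in R3, R4 and R5, and Per1, a circadian clock gene, at 9.0, 2.22, 0.94 and 1.54, an order of populations like that of Tsc22d3. Fkbp5 and Per1 were chosen after their values were seen. Thra, Rxra and Rxrb had the same order of populations as deposited, so it was not particular to glucocorticoid target genes. Zfp36l2, which encodes an RNA-binding protein needed for progenitor renewal, was at 130 RPKM in R2, then 26.1, 9.96 and 16.1 in R3, R4 and R5. Mt1 and Mt2, which encode metallothioneins that bind zinc and copper and which also answer to metals, were the 2 higher ones, with Mt1 going from 1190 RPKM in R2 to 2446 in R5 and Mt2 from 629 to 1267. Dusp1, a phosphatase that restrains MAP kinases, was at 27.1 RPKM in R2, then 34.0, 18.4 and 19.0 in R3, R4 and R5, within 2-fold as deposited.

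Genes that make, carry or break down the ligands were mostly at low levels. For steroids, 4 of 7 passed the filter and 3 were lower by 2-fold or more in R5 than in R2, beside 76.9% of all genes, and 1 with median scaling, beside 13.7%. At 1 RPKM or more were 4 of the 7 in R2 and 2, 1 and 2 in R3, R4 and R5. The filter thus leaned on R2, and these steroid counts support nothing. Hsd11b1, which regenerates active glucocorticoid, went from 4.07 to 0.37 RPKM, and H6pd, which supplies its cofactor, from 15.3 to 1.58. For thyroid hormone, 4 of 13 passed the filter, and 3 were lower, beside 76.9%, and 0 higher. The call turned with the scaling: 0 were lower and 1, Slc16a10, was higher with median scaling, beside 9.42% of all genes higher, and with globins removed, beside 7.35%. At 1 RPKM or more were 4 of the 13 in R2 and 2 in each later library, so these thyroid hormone counts also support nothing. The deiodinase genes Dio1, Dio2 and Dio3 were at 0.14 RPKM or less in every library. Slc16a10, a transporter of aromatic amino acids and thyroid hormones, was at 14.4 RPKM in R2, then 40.3, 48.0 and 24.1 in R3, R4 and R5, a course unlike that of Thra, and Klf9, a thyroid hormone and glucocorticoid target gene, was at 2.95, 0.59, 0.14 and 0.33. For retinoids, 6 of 19 passed, and 2 were lower, beside 76.9%, and 0 higher, with a median log2 ratio of -0.35. This too turned with the scaling: with median scaling 0 were lower and 2 higher, beside 9.42%, at a median of 0.74, and with globins removed 0 were lower and 1 higher, beside 7.35%, at 0.60. The retinaldehyde dehydrogenase genes Aldh1a1 and Aldh1a2 were at 0.28 RPKM or less and Aldh1a3 was listed at 0 throughout, while Rdh11, a retinal reductase, went from 11.2 to 2.05 RPKM. Rbp4, a retinol carrier secreted by hepatocytes, was at 7.61 RPKM in R2, then 19.9, 5.54 and 15.6 in R3, R4 and R5, the same order of populations as the summed hepatocyte markers in R3, R5 and R4, and the part of hepatocyte RNA in it was not tested.

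Of 23 genes that PPAR alpha is known to activate in liver, 19 passed the filter, and 12 were lower by 2-fold or more in R5 than in R2, beside 76.9% of all genes, and 0 higher, beside 2.74%, with a median log2 ratio of -1.32. With median scaling 1 was lower, beside 13.7%, and 4 higher, beside 9.42%. Ucp2, a mitochondrial carrier, was at 165 RPKM in R2, then 346, 354 and 286 in R3, R4 and R5, and the lipid droplet coat gene Adfp (Plin2) at 82.1, 67.0, 79.0 and 55.9. Acadm, an enzyme of fatty acid oxidation, went from 14.7 to 2.02 RPKM. The 11 progenitor and renewal genes give a measure of how early genes moved: 10 were lower by 2-fold or more in R5 than in R2, beside 76.9% of all genes, and 9 with median scaling, beside 13.7%, with median log2 ratios of -3.03 and -1.47, against -1.99 and -0.64 for the 7 genes followed here. All 11 were at 1 RPKM or more in R2 and 10 in each later library. They were listed as early genes, so their counts support nothing. Kit, the stem cell factor receptor gene, was at 46.1 RPKM in R2, then 4.2, 2.20 and 3.78 in R3, R4 and R5, above Thra in R2 and below it in the other libraries.

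For each of the 5 genes that reached 5 RPKM, the genes with the most similar course were sought among 7324 others, as the smallest root mean square difference of centred log2(RPKM + 1) over the 4 libraries. Closest to Nr3c1 were Arpc5, at a difference of 0.0096, Nutf2 at 0.016 and Pxk at 0.026. Closest to Thra were Mat2a at 0.035, Sec11a at 0.043 and Atp7b at 0.047. Rxra was nearest to Vamp5 at 0.0062, Rxrb to Agpat1 at 0.013 and Ncor1 to Taf2 at 0.027. With 4 libraries and so many genes such matches are a description. Among the genes followed here, Rxra and Rxrb were the closest pair at 0.12, and Thra and Tsc22d3 the most distant at 0.57, of the 6 genes above 4 RPKM in R2.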

How the data were processed

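Polyadenylated RNA of sorted fetal liver cells was sequenced with 1 library per population, per the labels' protocols. The authors deposited RPKM values, 1 per gene symbol with 2 decimals, for 19564 symbols, and the build was mm9 per the submitters' processing notes. The sources used here do not give the aligner, counting program, annotation, strand use or gene lengths. Genes at 1 RPKM or more in at least 1 library were kept, 9942 in all, and log2 ratios of RPKM + 1 were called at 2-fold. The populations were compared as R5 with R2, each neighbouring pair, and R5 with R3. Reads were estimated from the value of 1 read over 1 base and the exonic length of each gene. The value was sought among genes at 0 in at least 1 library and high in another, with small nuclear and nucleolar RNA genes left out. It was the unit, started from their lowest value, of which they were whole multiples (within 0.01). This held for 5 of 5 such genes above 0 in R2, 2 of 3 in R3, 2 of 2 in R4 and 3 of 3 in R5. The lowest gene of each library meets this largely by construction. All read counts and intervals rest on these few genes. Exonic lengths were those of GENCODE M21 (GRCm38) for 16956 symbols. Those lengths may exceed the authors', and the intervals are then too narrow. Alternatives were a pseudocount of 0.1 or of 5 RPKM, dropping the filter or raising it to 5 RPKM, median scaling over the 2745 genes at 5 RPKM or more in every library, removal of 8 globin genes with rescaling, and leaving out genes under 30 estimated reads. The 2-fold call was also run on simulated reads drawn from the R2 values, with known folds set for some genes. These had no globin shift, no other cells and no spread between replicates, so they do not check the calls made here. The 9 genes and the 16 lists were chosen with earlier results of these data known. Of 260 list entries 4 matched through a synonym and 2 did not match. Named were all 9 genes, other receptors at 5 RPKM or more, and per list the 4 highest means and the 2 highest and 2 lowest ratios of R5 to R2, of which a part is described and some are not reported here, and 3 similar genes per member. Deiodinase, retinaldehyde dehydrogenase, Nr1d1 and Pparg values were added after the values were seen. Software was Python 3.11.15, numpy 2.4.6, pandas 2.3.3 and scipy 1.17.1.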

Additional observations from a re-analysis of the deposited data

How the results depend on the processing

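The counts of members lower by 2-fold depended on the scaling and the pseudocount. For R5 against R2 the 7 became 4 with a pseudocount of 5 RPKM, 1 with median scaling, 3 with globin genes removed, and 2 in R5 against R3 with R2 not used. For R3 against R2 the 6 became 3, 0 and 2 under the first 3 of these. For R4 against R3 the 2 became 6 with a pseudocount of 0.1 RPKM and 0 with a pseudocount of 5 RPKM, median scaling or globin genes removed. For R5 against R3 the 2 became 0 under those 3. Dropping the filter, a filter of 5 RPKM and leaving out genes under 30 reads kept every count of lower members within 1.5 times. No log2 ratio of a member called as deposited with a pseudocount of 1 RPKM changed sign under any alternative run. Ratios within 2-fold did change sign with median scaling. In R5 against R3, Rxra went from -0.26 to 0.29, Rxrb from -0.46 to 0.19 and Tsc22d3 from -0.12 to 0.20. In R4 against R3, Rara went from -0.03 to 0.33 and Ncor1 from -0.96 to 0.04. In R5 against R4, Nr3c1 went from 0.007 to -0.22. Of 35 log2 ratios of RPKM + 1, 33 moved beyond the counting interval on that scale with median scaling, 27 with globin genes removed, 28 with a pseudocount of 5 RPKM and 21 with one of 0.1 RPKM. No paired analysis was possible because each population has 1 library. For Thrb and Ppara, at 14 reads or fewer, depth limits any comparison.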
